A study of Mus musculus with 58 samples.

Results

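The genes described here are 35 interferon-stimulated genes, taken as every probe set of the array whose gene symbol in the platform annotation is on a list of genes that type I interferon is known to induce. All 35 symbols had a probe set, among 23185 named genes and 25206 probe sets in all. Their RNA was measured with Affymetrix arrays in the diaphragm, the sheet of muscle that drives breathing, and in the tibialis anterior, which lifts the foot. All mice were adult female NSG mice, an immunodeficient strain without mature T, B and NK cells, and all had surgery. In PDX mice, pancreatic ductal adenocarcinoma tissue resected from a patient with cachexia was attached to the pancreas as a patient-derived xenograft, and each of the 4 cohorts carried the tumour of 1 patient. Sham mice had the surgery without a tumour, and tissues were taken when tumour-bearing mice had severe cachexia or a large tumour. There were 17 PDX and 12 sham arrays per muscle. Per muscle, the PDX arrays numbered 3 in cohort 1, 5 in cohort 2, 5 in cohort 3 and 4 in cohort 4, and every cohort had 3 sham arrays. The labels do not state that each array is a separate mouse, so the p-values measure the spread between arrays.

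Values are RMA log2 levels of a probe set, on which a difference of 1 is a 2-fold difference in signal. Levels are compared between samples and not between probe sets. The median of all probe sets and arrays was 3.78, and genes below it were dim, so that their differences may understate the change in RNA. The markers of muscle were high in both tissues, with Acta1, skeletal muscle actin, at a mean of 11.97 in both sham muscles. Liver and pancreatic acinar markers such as Alb, serum albumin, were in part of the diaphragms: on 15 of the 29 diaphragm arrays (9 PDX and 6 sham) their mean lay at 5.83 to 8.88, above all 29 tibialis anterior arrays, whose highest was 5.51. The tibialis anterior arrays began at 2.94. Those at 5.03 and 5.51 were PDX arrays of cohort 4, whose sham arrays had 3.02 to 3.66. Both lay above the other diaphragms, whose highest was 4.325, and no tibialis anterior array was left out for these markers. These 15 arrays include all 3 PDX diaphragms of cohort 1, and results that use the diaphragm are given with and without them where that changes a call. In whole muscle, more cells of a type and more RNA per cell cannot be told apart.

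Type I interferons bind a receptor of the chains Ifnar1 and Ifnar2, whose kinases Jak1 and Tyk2 pass the signal on. Stat2 and Irf9 then act in the nucleus at interferon-stimulated response elements in the promoters of antiviral genes. Many of the induced genes sense viral nucleic acid, block translation or degrade RNA, and most cell types, muscle fibres and macrophages among them, keep a low basal level of them.

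The promoters of the members are shown because the list is defined by this shared response. RefSeq (GRCm38.p6) gave a window from 250 bases before to 50 bases after the gene start for 25 of the 35 members. The window of 13 of these 25 (52.0%) held the core of the response element, GAAA, any 2 bases and GAAA again, on either strand, against 3.99% of all 27025 genes with a window. A match describes these letters and is not a shown binding site. Sites of members that the results turn on are given below with 6 flanking bases on each side, read on the strand on which the core begins with GAAA, with the match in capitals and overlapping matches joined. The first base of a match is counted along the gene, as its most upstream base. For Gbp2, Gbp3, Rsad2 and Ddx58, printed on the strand opposite to the gene, that base is the last capital letter.
Gbp2, chr3:142620598-142620619, minus strand, first base of the match at -59 from the gene start: gacagtGAAAGTGAAActaaaa
Gbp3, chr3:142559993-142560020, minus strand, first base of the match at -45 from the gene start: atctggGAAATAGAAACTGAAActgtgt
Isg15, chr4:156200869-156200902, minus strand, first base of the match at -78 from the gene start: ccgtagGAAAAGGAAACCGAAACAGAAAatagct
Rsad2, chr12:26456557-26456578, plus strand, first base of the match at -120 from the gene start: ttttctGAAAATGAAAgttgga
Ddx58, chr4:40239808-40239829, plus strand, first base of the match at 3, counted from 1 at the gene start: ccatagGAAATCGAAActgcct
Eif2ak2, chr17:78882539-78882560, minus strand, first base of the match at 19, counted from 1 at the gene start: cgccggGAAAACGAAAcagaag
Ifih1, chr2:62646208-62646229, minus strand, first base of the match at 33, counted from 1 at the gene start: agaatcGAAACAGAAAccgatc
Isg15 held 3 overlapping cores and Gbp3 held 2, while the others of these 7 held 1 each. Cmpk2 and Oasl2 had no core in the window. For contrast the 250 bases before the start are shown for Gbp2 and Rsad2, which hold it, and for Oasl2 and Cmpk2, which do not, each read 5′ to 3′ along the gene with any match in capitals, here its reverse complement (TTTC, any 2 bases, TTTC) where the match is on the other strand.
Gbp2, chr3:142620413-142620662, plus strand: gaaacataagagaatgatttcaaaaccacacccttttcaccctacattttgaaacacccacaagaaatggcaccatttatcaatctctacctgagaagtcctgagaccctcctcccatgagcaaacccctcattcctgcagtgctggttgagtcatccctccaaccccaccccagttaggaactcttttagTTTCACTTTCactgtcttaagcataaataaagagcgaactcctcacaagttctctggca
Rsad2, chr12:26456453-26456702, minus strand: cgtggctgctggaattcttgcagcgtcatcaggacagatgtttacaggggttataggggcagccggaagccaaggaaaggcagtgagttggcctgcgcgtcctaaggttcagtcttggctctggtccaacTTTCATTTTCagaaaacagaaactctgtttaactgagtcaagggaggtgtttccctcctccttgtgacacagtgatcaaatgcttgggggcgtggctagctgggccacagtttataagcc
Oasl2, chr5:114896684-114896933, plus strand: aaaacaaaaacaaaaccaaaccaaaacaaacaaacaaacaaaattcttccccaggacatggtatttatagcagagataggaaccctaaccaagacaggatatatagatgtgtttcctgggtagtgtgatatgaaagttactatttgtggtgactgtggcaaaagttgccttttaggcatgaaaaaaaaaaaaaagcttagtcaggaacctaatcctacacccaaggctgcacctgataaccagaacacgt
Cmpk2, chr12:26468965-26469214, plus strand: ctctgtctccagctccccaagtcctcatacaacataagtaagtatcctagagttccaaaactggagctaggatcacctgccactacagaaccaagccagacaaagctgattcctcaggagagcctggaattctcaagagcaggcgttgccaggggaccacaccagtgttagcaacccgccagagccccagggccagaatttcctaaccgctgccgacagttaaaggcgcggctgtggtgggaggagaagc
Rsad2 and Cmpk2 lie head to head on chromosome 12, with their starts 12.8 kb apart.

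The first comparison asked how the muscles differ without a tumour. In sham mice, 30 of the 35 genes were higher in the diaphragm than in the tibialis anterior and 0 were lower (limma with all 58 arrays, adjusted p under 0.05 over all named genes), where 39.7% of all genes passed, 15.2% higher and 24.5% lower. The median difference of the 35 genes was 0.63, against -0.09 for all genes. The difference held in every role: all 4 transcription factors, all 5 nucleic acid sensors, all 6 further antiviral effectors, both members of the ISG15 system and both ADP-ribosyltransferases were higher, as were 3 of 5 genes of the OAS family, 2 of 3 of the IFIT family, 3 of 4 GTPases and 3 of 4 other induced genes. The 5 genes that did not pass were Oas3, Oasl1, Ifit3, Mx1 and Tor3a. Oas3, Oasl1 and Mx1 had means below the median of all probe sets in both muscles.

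Oasl2, a relative of the 2′-5′-oligoadenylate synthetases with ubiquitin-like domains, had the largest difference. Its level in sham mice ran over 4.98, 5.81 and 6.23 (lowest, median and highest of 12 arrays) in the diaphragm, against 3.32, 4.09 and 4.73 in the tibialis anterior. Every sham diaphragm array lay above every sham tibialis anterior array, and the difference was 1.62 ± 0.12 (SE), or 3.08-fold, with a limma adjusted p of 1.17e-15. Gbp2, a guanylate-binding protein that acts at the membrane of intracellular pathogens, had 5.38, 6.04 and 6.50 in sham diaphragms and 4.00, 4.37 and 4.95 in sham tibialis anterior. These groups did not overlap either, and the difference was 1.59 ± 0.12 (3.01-fold, limma adjusted p = 1.88e-15). Gbp3, its neighbour on chromosome 3, had 3.85, 4.68 and 4.78 in the diaphragm against 2.71, 3.21 and 3.81 in the tibialis anterior. It differed by 1.34 ± 0.12, or 2.52-fold, again without overlap.

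Herc6, the main ISG15 ligase in mice, was at 5.41, 5.83 and 5.99 in sham diaphragms, against 3.58, 4.58 and 5.01 in sham tibialis anterior, a difference of 1.28 ± 0.11. Isg15 itself, the ubiquitin-like protein that Herc6 attaches, was dim in both muscles, with means of 2.80 in the diaphragm and 2.40 in the tibialis anterior and a difference of 0.40 ± 0.10. Oas2, which makes the 2′-5′-oligoadenylates that switch on RNase L, was at 5.76, 6.22 and 6.42 in the diaphragm, against 4.56, 4.998 and 5.62 in the tibialis anterior. The difference of Oas2 was 1.15 ± 0.12, and that of the exonuclease Isg20 was 1.10 ± 0.19. The helicases Ddx58, known as RIG-I, and Ifih1, known as MDA5, which detect viral RNA, were higher by 1.04 ± 0.11 and 1.01 ± 0.10, while their regulator Dhx58 was dim and higher by 0.31 ± 0.10.

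Of the transcription factors, Irf7 was higher in the sham diaphragm by 0.94 ± 0.17, Irf9 by 0.83 ± 0.12, Stat2 by 0.78 ± 0.14 and Irf1 by 0.43 ± 0.08. In 10 of the 35 genes the sham diaphragm arrays all lay above the sham tibialis anterior arrays, as they did in 2.62% of all genes. Besides Oasl2, Gbp2, Gbp3, Herc6, Oas2 and Ifih1 these were Irf9, Stat2, Parp14, an ADP-ribosyltransferase, and Ifi27, a mitochondrial protein. Among 13 members with the core in the promoter 11 were higher, with a median of 0.74, and among 12 without it 11 were higher, with a median of 0.61. Bst2, or tetherin, which holds budding virus on the cell surface, had the widest spread, from 4.53 to 7.43 in sham diaphragms, against 3.39 to 5.82 in sham tibialis anterior, and differed by 1.00 ± 0.24.

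**Figure D1:**
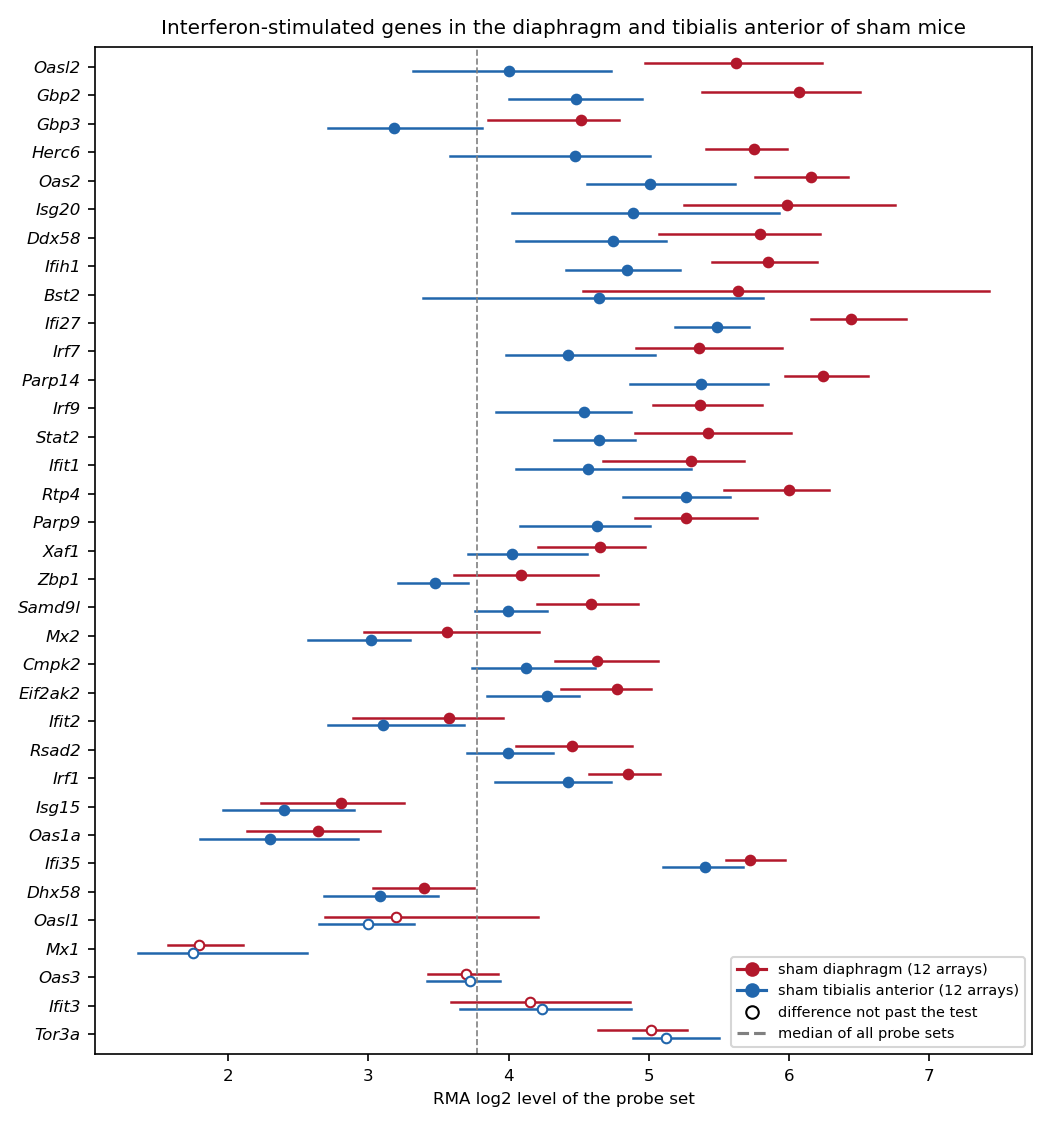
RMA log2 levels (x axis) of the 35 genes in 12 sham diaphragms (red) and 12 sham tibialis anterior muscles (blue), ordered by their difference; points are means, lines run from the lowest to the highest array, open points mark genes that did not pass the test, and the dashed line is the median of all probe sets at 3.78. Oasl2, Gbp2 and Gbp3 at the top are separated without overlap, and the 5 genes at the bottom, such as Mx1 with means of 1.79 in the diaphragm and 1.75 in the tibialis anterior, are not.

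Without the 15 diaphragm arrays that hold liver and acinar markers, 26 of the 35 genes were still higher in the sham diaphragm, where 11.9% of all genes were, and the median difference was 0.61. Dhx58, Mx2, Isg15 and Rsad2 no longer passed, and Oasl2 differed by 1.69. Some differences became smaller, such as 0.70 for Irf7, 0.58 for Stat2 and 0.77 for Bst2, and others larger, such as 1.77 for Gbp2. This setting left 6 sham diaphragms, with only 1 in cohort 1 and 1 in cohort 3. The calls of Rsad2 and Oas1a also ended without single arrays, in 15 and 7 of 58 cases. Markers of other cells also differed between the sham muscles. Of 18 macrophage and monocyte markers 14 were higher in the sham diaphragm, with a median of 0.80, and their mean level ranged from 4.96 to 5.76 in the sham diaphragms against 4.24 to 4.74 in the sham tibialis anterior muscles. All 7 markers of mesothelium, all 5 of adipocytes and 10 of 11 of fibroblasts were higher in the diaphragm as well, against 4 of 12 of endothelium and 0 of 15 of lymphocytes, and 7 of 13 markers of muscle fibres were lower. The mean level of the 13 fibre markers was nevertheless alike, at 10.77 in the sham diaphragms and 10.75 in the sham tibialis anterior muscles. Siglech and Ccr9, which mark plasmacytoid dendritic cells, the main producers of type I interferon in blood, did not pass. On the list of 8 markers of these cells, which shares Bst2 with the members, 2 were higher. The means of Siglech and Ccr9 were 3.80 and 2.87 in the sham diaphragm and 3.98 and 3.11 in the sham tibialis anterior. The part of these cells in the difference was not tested.

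Of 94 further genes of the interferon pathway, 48 were higher and 11 lower in the sham diaphragm, beside the 15.2% and 24.5% of all genes. No interferon ligand was higher, and 4 of the 9 measured were lower; Ifnb1, interferon beta, had a mean of 1.83 in the diaphragm and 1.85 in the tibialis anterior, and Ifng had 3.08 and 3.21 in the same order. Of the receptors, Ifnar2 differed by 1.37 ± 0.11, Ifnar1 by 0.47 ± 0.08 and Il10rb, the shared chain of the interferon lambda receptor, by 1.37 ± 0.08. Among genes that interferons induce, 23 of 36 further type I targets and 9 of 16 targets of interferon gamma were higher, led by the GTPase Iigp1 with 2.29 ± 0.38 and by Ifi27l2a with 2.00 ± 0.15. Usp18, which removes ISG15 and dampens signalling at Ifnar2, was higher by 0.54 ± 0.15. Without the arrays with liver and acinar markers 42 of the 94 were higher and 6 lower, Usp18 did not pass (0.25), and the difference of Iigp1 was 1.42. The 6 lower genes included the kinases Jak1 (-0.46) and Jak2 (-0.40) and the receptor chain Ifngr2 (-0.32). Irf5 was lower as well, with means over all arrays of 4.24 in the diaphragm and 5.01 in the tibialis anterior.

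The second comparison asked what a pancreatic tumour did to these genes in each muscle. In the tibialis anterior, 1 of the 35 genes rose in PDX mice and 3 fell (limma with the 29 arrays of the muscle, mean of the 4 cohorts, adjusted p under 0.05), where 12.8% of all genes passed, 6.32% higher and 6.53% lower. The estimates of 28 of the 35 were below 0, with a median of -0.08, against -0.01 for all genes.

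Oasl2 fell in the tibialis anterior by 0.38 ± 0.09 on the log2 scale (limma adjusted p = 0.00536). Its level was 3.05, 3.67 and 4.26 (lowest, median and highest of 17 arrays) in PDX mice, against 3.32, 4.09 and 4.73 on the 12 sham arrays, so that the groups overlapped. Without cohort 4 its difference was -0.17 and did not pass. Eif2ak2, the kinase PKR that stops translation when it binds double-stranded RNA, fell by 0.33 ± 0.09 (limma adjusted p = 0.0177), with 3.06, 4.00 and 4.52 in PDX mice and 3.84, 4.31 and 4.50 in sham mice. It did not pass without cohort 1 or 3. Rtp4, a chaperone of membrane receptors that interferon induces, fell by 0.30 ± 0.07 (limma adjusted p = 0.00327). Its level was 4.46, 4.97 and 5.40 in PDX mice, against 4.81, 5.33 and 5.58 in sham mice, and the estimates of Rtp4, Eif2ak2 and Samd9l were below 0 in all 4 cohorts. The same sign in all 4 cohorts was seen in these 3 of 35 genes and in 28.6% of all genes. Rsad2, or viperin, an enzyme that makes a chain-terminating nucleotide, rose by 0.38 ± 0.13 (limma adjusted p = 0.0417), and this rested on cohort 1: without that cohort its difference was 0.02. Leaving out single arrays ended this call in 18 of 29 cases. Isg20, with 0.42 ± 0.15, did not pass (limma adjusted p = 0.0568).

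In the diaphragm, 2 of the 35 genes rose in PDX mice and 1 fell, where 12.5% of all genes passed (5.89% rose and 6.58% fell), and the median difference was 0.05. Oasl2 rose by 0.49 ± 0.12 (limma adjusted p = 0.00771), with 5.31, 5.90 and 7.17 in PDX diaphragms and 4.98, 5.81 and 6.23 in sham diaphragms. Zbp1, a sensor of nucleic acid in the Z form that can start necroptosis, rose by 0.40 ± 0.10 (limma adjusted p = 0.0106). It had 3.97, 4.50 and 5.08 in PDX diaphragms, against 3.61, 4.11 and 4.63 in sham diaphragms, and its estimate was above 0 in all 4 cohorts, like those of Mx1 and Tor3a. That is 3 of 35 genes, where 26.8% of all genes had 1 sign in all cohorts. Cmpk2, a mitochondrial nucleotide kinase, fell by 0.28 ± 0.09 (limma adjusted p = 0.0397), with 3.75, 4.35 and 4.78 in PDX diaphragms and 4.33, 4.57 and 5.07 in sham diaphragms. Leaving out single arrays ended the Cmpk2 call in 16 of 29 cases. In both muscles the PDX and sham arrays overlapped for all 35 genes when the cohorts were put together, as they did for nearly all genes (0.0388% higher and 0.0388% lower without overlap in the tibialis anterior, 0.069% and 0.0388% in the diaphragm).

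None of these 3 calls in the diaphragm held without the 15 arrays with liver and acinar markers, which removes cohort 1 from the comparison and leaves 8 PDX and 6 sham arrays, and 1.31% of all genes rose. The differences were then 0.47 for Oasl2 (limma adjusted p = 0.277), 0.30 for Zbp1 (limma adjusted p = 0.172) and -0.44 for Cmpk2 (limma adjusted p = 0.119). Oasl2 in the diaphragm also failed to pass without cohort 1, 2 or 3, Zbp1 without cohort 2, and Cmpk2 without cohort 1, 2 or 4. Of the macrophage markers, 14 of 18 were higher in PDX diaphragms, with a median of 0.87, and 6 of 18 without the arrays with liver and acinar markers, with a median of 0.77. With all arrays they had a mean level of 5.55 to 6.89 in PDX diaphragms against 4.96 to 5.76 in sham diaphragms. In the tibialis anterior 1 of the 18 rose and 3 fell, and all 11 fibroblast markers fell. The part of these cells in the results of the 35 genes was not tested.

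**Figure D2:**
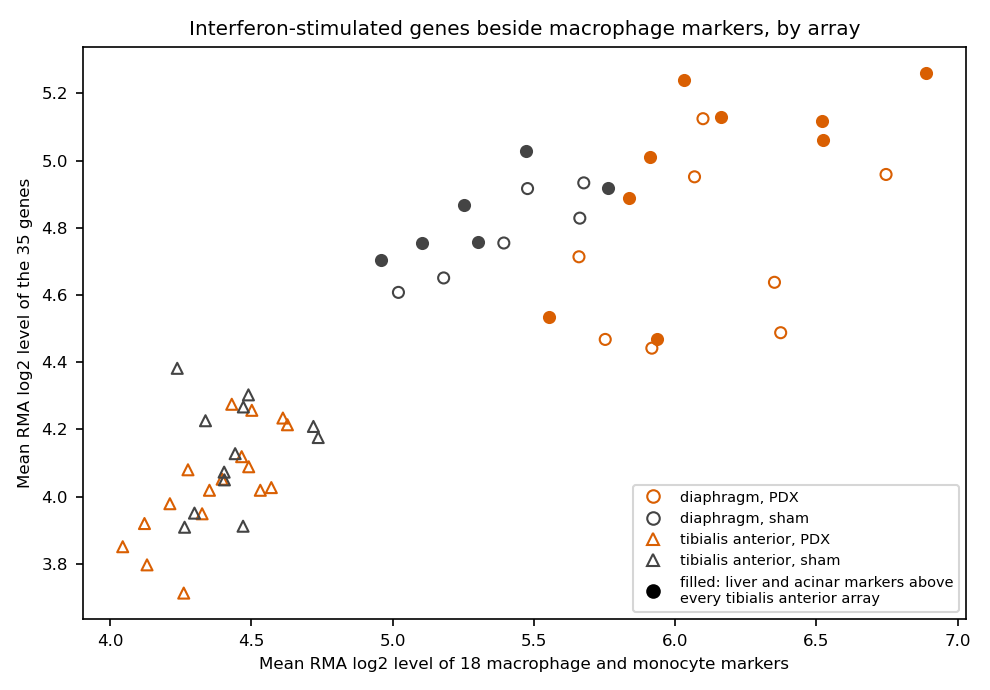
Mean RMA log2 level of the 35 genes (y axis) against that of 18 macrophage and monocyte markers (x axis) on each of the 58 arrays; circles are diaphragms, triangles tibialis anterior, orange PDX and grey sham, and filled circles are the 15 diaphragms with liver and acinar markers. The mean of the 35 genes was 4.44 to 5.26 in PDX diaphragms, 4.61 to 5.03 in sham diaphragms, 3.71 to 4.28 in PDX tibialis anterior and 3.91 to 4.38 in sham tibialis anterior, so the muscles separate on both axes and PDX and sham overlap on the y axis.

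The third comparison set the tumour effect of the diaphragm against that of the tibialis anterior. The effect was higher in the diaphragm for 4 of the 35 genes and lower for 0 (limma with all 58 arrays, difference of the mean cohort effects), where 6.33% of all genes passed, 3.66% higher and 2.67% lower. The median of the 35 was 0.12, against -0.01 for all genes. Oasl2 differed by 0.88 ± 0.16 (limma adjusted p = 0.000163), having risen in the diaphragm and fallen in the tibialis anterior. This held in each of the 58 fits that left out 1 array, where it was 0.83 to 0.95, and in all 11 other settings, where it was 0.81 to 0.91 with an adjusted p of at most 0.047, the arrays with liver and acinar markers left out being 1 of them.

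The arrays of Oasl2 show how this was made up. In cohort 1 its diaphragm level was 7.17, 6.86 and 6.49 in PDX mice, against 6.23, 6.12 and 6.02 in sham mice, and its tibialis anterior level was 3.84, 3.79 and 3.66 in PDX mice, against 4.22, 4.09 and 4.09 in sham mice. All its PDX arrays were above the sham arrays in the diaphragm and below them in the tibialis anterior. In cohort 2 its diaphragm level was 6.94, 6.26, 6.23, 5.83 and 5.77 in PDX mice, against 5.84, 5.02 and 4.98 in sham mice, and in the tibialis anterior the groups overlapped. In cohort 3 its diaphragm level was 6.17, 5.90, 5.72, 5.69 and 5.37 in PDX mice, against 5.33, 5.18 and 5.10 in sham mice. Cohort 4 differed from these in that its PDX diaphragms were not above sham, with 6.15, 5.57, 5.56 and 5.31 in PDX mice against 6.02, 5.86 and 5.77 in sham mice, while the tibialis anterior had 3.72, 3.67, 3.11 and 3.07 in PDX mice against 4.73, 4.45 and 4.09 in sham mice.

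Oas2 differed by 0.49 ± 0.15 (limma adjusted p = 0.0414), with a diaphragm effect of 0.29 and a tibialis anterior effect of -0.20 that did not pass on their own. Leaving out single arrays ended this call in 26 of 58 cases. Eif2ak2 differed by 0.43 ± 0.12 (limma adjusted p = 0.0231) and Tor3a, an ATPase of the endoplasmic reticulum, by 0.31 ± 0.09 (limma adjusted p = 0.0322). The Tor3a call ended in 6 of 58 such cases and the Eif2ak2 call in 0. None of the 3 passed without cohort 1 or 2. Without the arrays with liver and acinar markers the 3 had adjusted p-values of 0.363, 0.267 and 0.502 from limma, with differences of 0.45, 0.43 and 0.18. Macrophage markers moved in the same comparison, 12 of 18 being higher with a median of 0.86, as did 9 of 11 fibroblast markers, with a median of 0.80. Without the same arrays 8 of 18 macrophage markers (median 0.74) and 6 of 11 fibroblast markers (median 0.88) were higher. Their part in the difference was not tested.

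**Figure D3:**
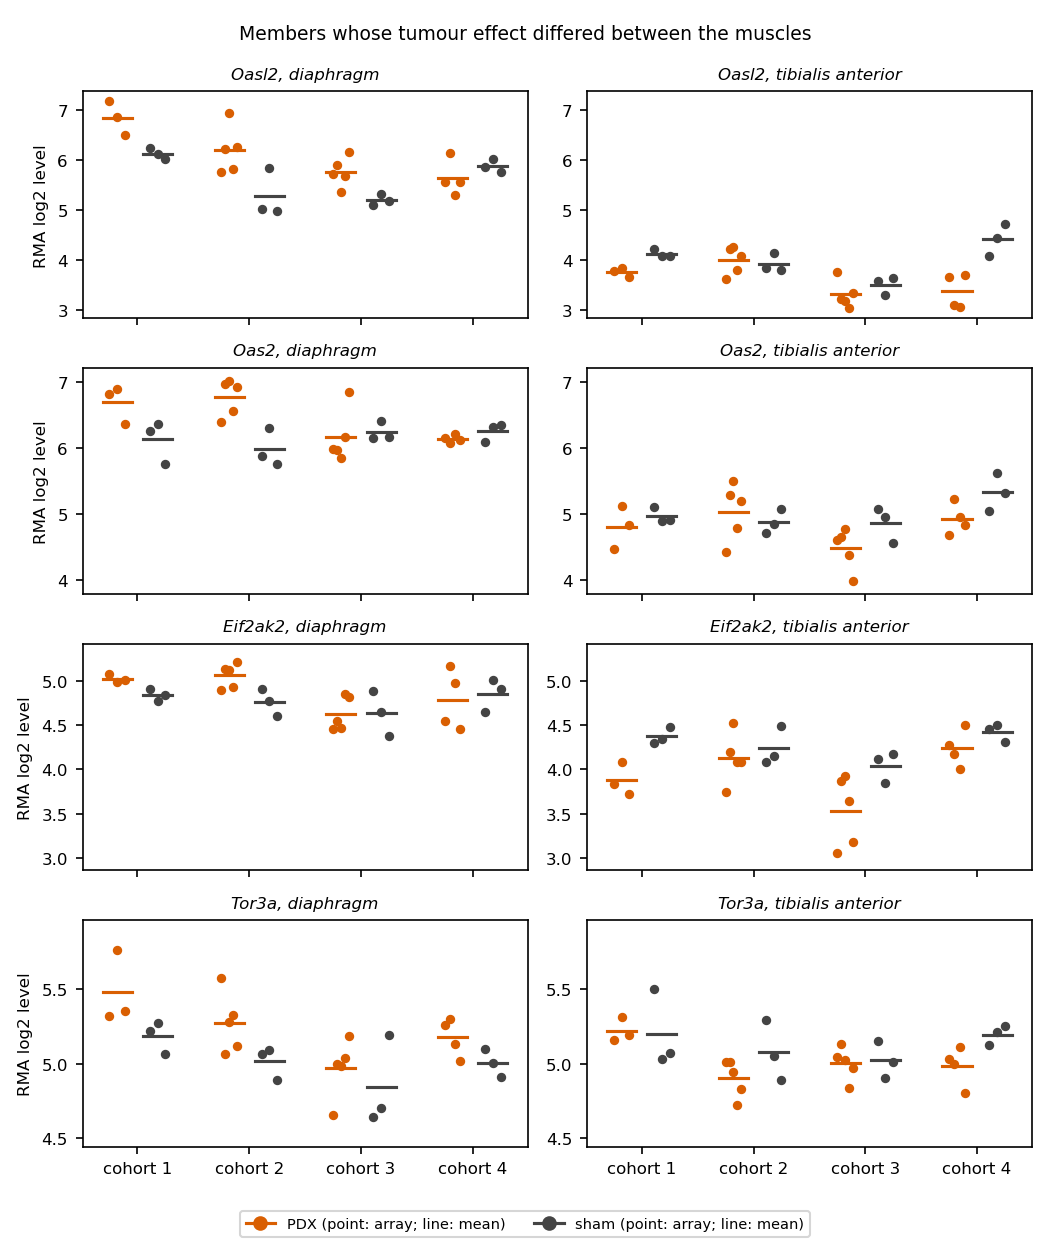
RMA log2 levels (y axis) of Oasl2, Oas2, Eif2ak2 and Tor3a on every array, by cohort (x axis), in the diaphragm (left) and tibialis anterior (right); orange points are PDX arrays, grey points sham arrays, and short lines group means. Oasl2 sits above sham in the PDX diaphragms of cohorts 1 and 3 without overlap, and below sham in the PDX tibialis anterior of cohorts 1 and 4.

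Each cohort carried another tumour, so the 35 genes were also compared within cohorts. In the diaphragm, 33 of the 35 estimates were above 0 in cohort 2, with a median of 0.36, and 26 in cohort 1, with a median of 0.16. In cohorts 3 and 4 the numbers above 0 were 7 and 10, with medians of -0.17 and -0.15. All 3 PDX diaphragms of cohort 1 held liver and acinar markers, so this cohort cannot be compared without such arrays. Without the arrays with these markers the medians of cohorts 2, 3 and 4 were 0.29, -0.10 and -0.26. The medians of all genes were then -0.02, -0.01 and 0.01, and cohort 3 kept only 1 sham diaphragm. In the tibialis anterior, 10, 23, 15 and 6 estimates were above 0 in cohorts 1 to 4, with medians of -0.13, 0.07, -0.03 and -0.27. The array medians of all probe sets averaged 3.788, 3.787, 3.793 and 3.808 in PDX diaphragms of cohorts 1 to 4. In sham diaphragms these averages were 3.767, 3.784, 3.803 and 3.751. For the tibialis anterior they were 3.716, 3.767, 3.786 and 3.747 in PDX mice, against 3.728, 3.773, 3.799 and 3.791 in sham mice. The test of whether the cohort effects differ, limma's moderated F test, called 0 of the 35 genes in either muscle, as it called nearly none of all genes (0.0129% in the tibialis anterior and 0.00431% in the diaphragm). At an unadjusted p under 0.05 it gave 7 members (20%) in the tibialis anterior, against 7.33% of all genes, and 13 members (37.1%) in the diaphragm, against 7.44% of all genes.

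In cohort 1, Rsad2 and Isg20 rose in the tibialis anterior, which were 2 of the 35 genes where 1.15% of all genes rose (2.46% passed in either direction and 1.31% fell, with 0 members). Rsad2 had 6.17, 5.61 and 4.93 in PDX mice, against 4.32, 3.97 and 3.97 in sham mice. The groups did not overlap, and the difference was 1.49 ± 0.27, or 2.80-fold (limma adjusted p = 0.00242). Isg20 had 7.66, 6.42 and 6.38 in PDX mice, against 5.93, 5.42 and 5.18 in sham mice, a difference of 1.31 ± 0.31, or 2.48-fold (limma adjusted p = 0.0196). The Isg20 call ended without sham replicate 1, sham replicate 2 or PDX replicate 1 of this cohort, and the Rsad2 call in none of 29 such cases. In the diaphragm of cohort 1, Rsad2 had 7.47, 6.15 and 4.68 in PDX mice, against 4.88, 4.34 and 4.23 in sham mice. 1 PDX array lay within the sham range, and the difference of 1.62 ± 0.43 did not pass (limma adjusted p = 0.119). Isg20 had 8.84, 7.08 and 6.69 in PDX diaphragms and 6.76, 6.38 and 6.19 in sham diaphragms, a difference of 1.09 ± 0.43 that did not pass either (limma adjusted p = 0.354). No gene among the 35 passed in the diaphragm of cohort 1, where 0.0345% of all genes passed (0.0216% rose and 0.0129% fell), and 4 of the 35 (11.4%) had an unadjusted p under 0.05, as had 9.27% of all genes. In 8 of the 35 genes all 3 PDX diaphragms lay above the sham diaphragms of cohort 1, as in 9.73% of all genes.

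Cmpk2, the neighbour of Rsad2, did not pass in either muscle of cohort 1. In the tibialis anterior of cohort 1, Cmpk2 had 4.07, 3.95 and 3.94 in PDX mice, against 4.25, 4.09 and 3.98 in sham mice, and in the diaphragm 4.78, 4.69 and 4.24 in PDX mice, against 4.84, 4.80 and 4.74 in sham mice. Over the 4 cohorts the difference of Rsad2 was 0.38 in the tibialis anterior and 0.35 in the diaphragm, and that of Cmpk2 was -0.23 and -0.28. The difference between the neighbours was not tested. The IFIT genes, which bind foreign RNA ends, had differences from -0.30 to 0.22 in the tibialis anterior of cohort 1, and none of the 3 passed.

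**Figure D4:**
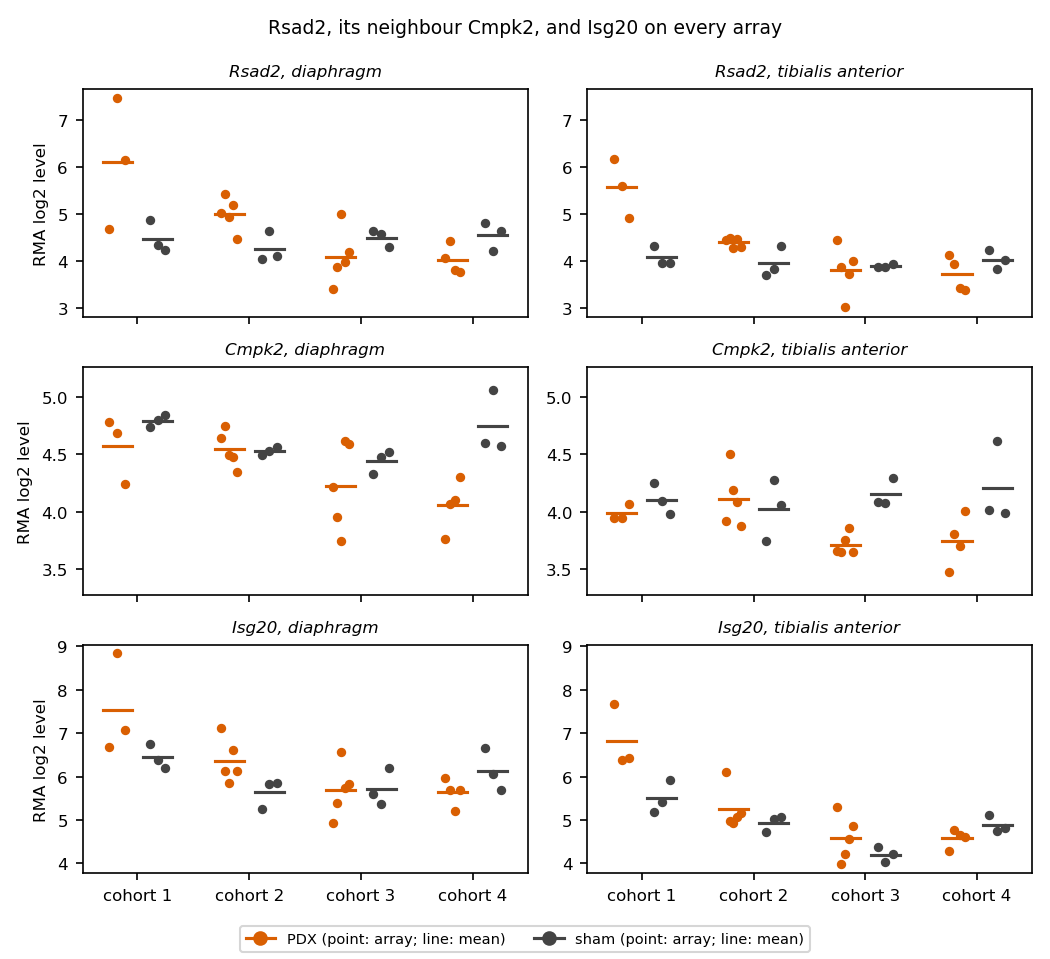
RMA log2 levels (y axis) of Rsad2, its neighbour Cmpk2 and Isg20 on every array, by cohort (x axis), in the diaphragm (left) and tibialis anterior (right); orange points are PDX arrays, grey points sham arrays, and short lines group means. Rsad2 and Isg20 are highest in the PDX mice of cohort 1, up to 7.47 and 8.84 in the diaphragm, while Cmpk2 there is at or below sham.

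In cohort 2, Oas2 and Oasl2 rose in the diaphragm, 2 of the 35 genes where 2.21% of all genes rose (2.69% passed in either direction and 0.483% fell, with 0 members). Oas2 had 7.03, 6.98, 6.93, 6.57 and 6.40 in PDX mice, against 6.31, 5.88 and 5.76 in sham mice, a difference of 0.80 ± 0.19 (limma adjusted p = 0.0267). Oasl2 rose by 0.93 ± 0.24 (limma adjusted p = 0.032). Both calls ended without sham replicate 1 or 3, or PDX replicate 3 or 5, of this cohort. Without the arrays with liver and acinar markers the differences were 0.75 and 0.91, and neither passed. In 8 of the 35 genes, namely Irf1, Irf9, Ifih1, Zbp1, Oas2, Samd9l, Parp9 and Parp14, all PDX diaphragms of this cohort lay above its sham diaphragms, as in 6.94% of all genes. In the tibialis anterior of cohort 2, 0 genes passed among the members and among all genes (0%), with 1 member (2.86%) and 5.46% of all genes at an unadjusted p under 0.05. There, 1 member, Ifit3, had all PDX arrays above the sham arrays, as in 2.27% of all genes.

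In cohort 3, Samd9l, a sensor that limits translation in infected cells, fell in the tibialis anterior by 0.50 ± 0.16 (limma adjusted p = 0.048), where 7.96% of all genes passed, 4.07% lower and 3.89% higher. It had 3.82, 3.66, 3.65, 3.29 and 2.85 in PDX mice, against 4.17, 3.84 and 3.84 in sham mice, and leaving out single arrays ended the call in 24 of 29 cases. It was among 3 members, with Cmpk2 and Xaf1, whose PDX arrays all lay below the sham arrays, as in 5.46% of all genes. In the diaphragm of cohort 3, 0 members passed, where 1.06% of all genes passed (0.604% rose and 0.457% fell). An unadjusted p under 0.05 was seen in 3 members (8.57%) and in 12.1% of all genes. All PDX diaphragms of cohort 3 lay below sham in 3 members, against 3.23% of all genes, and above sham in 1, against 3.28%. In cohort 4, Oasl2 and Xaf1, a gene linked to cell death, fell in the tibialis anterior, where 0.302% of all genes passed, 0.211% lower and 0.0906% higher. Oasl2 fell by 1.03 ± 0.19 (limma adjusted p = 0.00994), to a level 0.49-fold that of sham mice, and Xaf1 by 0.68 ± 0.15 (limma adjusted p = 0.0484). Xaf1 had 4.04, 3.80, 3.53 and 3.43 in PDX mice, against 4.56, 4.55 and 4.03 in sham mice, so 1 PDX array overlapped. The Oasl2 call ended without sham replicate 2, sham replicate 3 or PDX replicate 2 of this cohort, and the Xaf1 call in 20 of 29 such cases. In 12 of the 35 genes all PDX tibialis anterior arrays of cohort 4 lay below its sham arrays, as in 6.76% of all genes, and in 0 above them, as in 5.6%. The 12 include Irf7, Irf9, Ddx58, Ifih1, Ifit1, Ifit2 and Gbp3. In its diaphragm 0 members passed, where 0.0647% of all genes rose and 0.319% fell. There, 7 members (20%) had an unadjusted p under 0.05, as had 14.1% of all genes. All PDX diaphragms of cohort 4 lay below sham in 4 members, against 7.72% of all genes, and above sham in 0, against 4.75%.

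**Figure D5:**
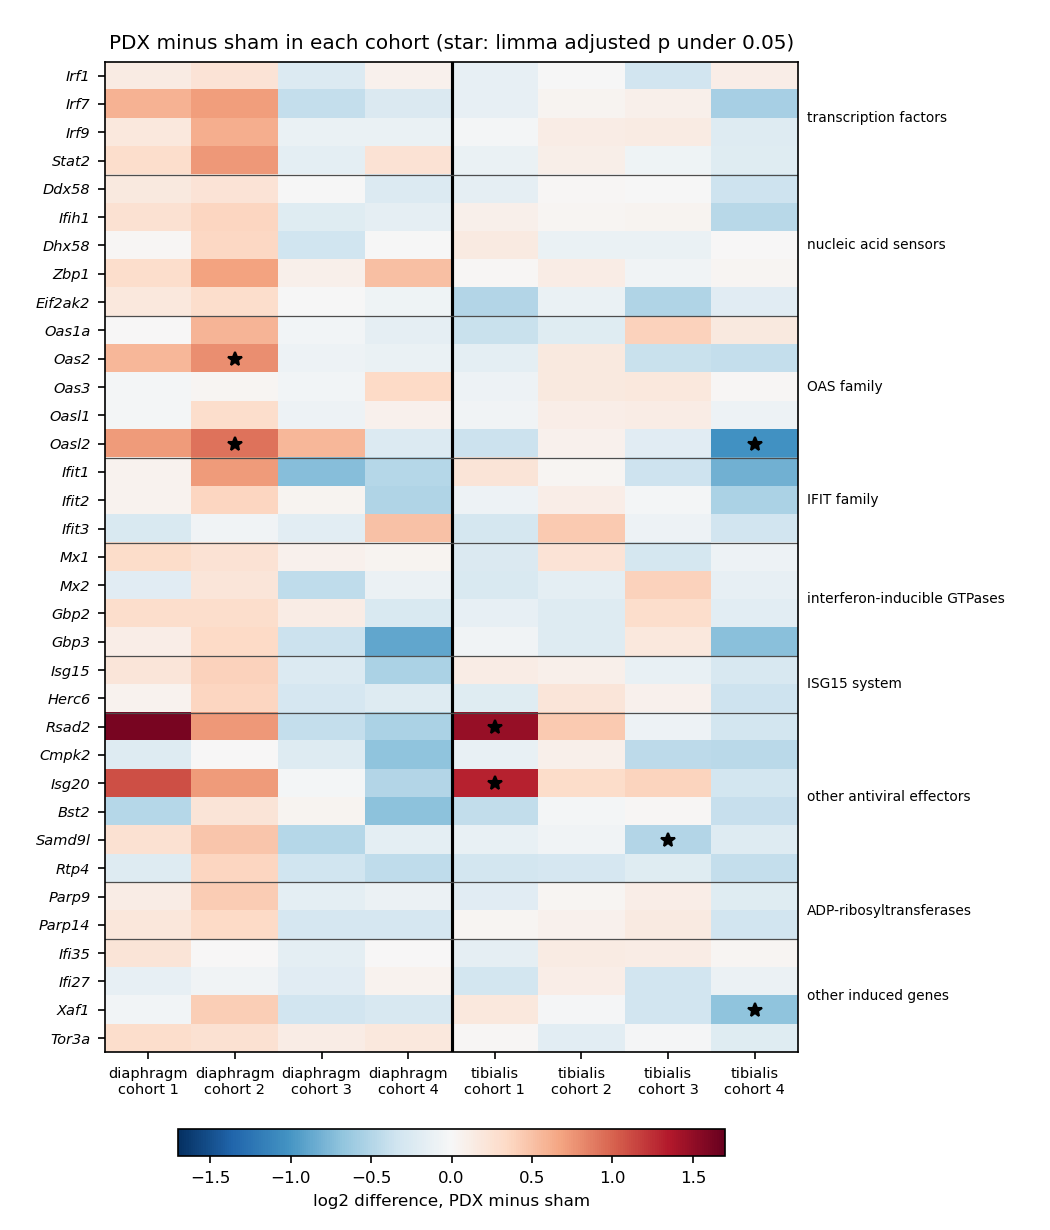
Log2 difference of PDX minus sham (colour, red for higher in PDX and blue for lower) of the 35 genes (rows, grouped by role) in each cohort, in the diaphragm (left) and tibialis anterior (right); stars mark a limma adjusted p under 0.05. Cohorts 1 and 2 of the diaphragm are mostly red, with 26 and 33 estimates above 0, and cohort 4 of the tibialis anterior is mostly blue, with 6 above 0. All 3 PDX diaphragms of cohort 1 held liver and acinar markers.

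Among the 94 further pathway genes, 20 rose and 2 fell in PDX diaphragms, where 5.89% of all genes rose and 6.58% fell. In the PDX tibialis anterior 5 rose and 10 fell, where 6.32% of all genes rose and 6.53% fell. In the difference between the muscles 10 were higher and 0 lower, where 3.66% and 2.67% of all genes were. Without the arrays with liver and acinar markers 5 rose and 0 fell in the diaphragm, where 1.31% of all genes rose, and 4 were higher in the difference between the muscles, where 1.45% of all genes were. No interferon ligand passed in either muscle, and Ifnb1 had means of 1.79 in PDX and 1.83 in sham diaphragms, and 1.95 in PDX and 1.85 in sham tibialis anterior. In the diaphragm, Sting1, the adaptor of DNA sensing, rose by 1.02 ± 0.12, Tlr7, a receptor for single-stranded RNA, by 0.90 ± 0.17, Plac8 by 1.36 ± 0.13 and Ifnar2 by 0.40 ± 0.12. None of these passed in the tibialis anterior, with differences of 0.08 for Sting1, -0.03 for Tlr7, 0.14 for Plac8 and -0.07 for Ifnar2, and all 4 genes differed between the muscles. Without the arrays with liver and acinar markers Sting1 and Plac8 still passed in both comparisons, with 1.21 and 1.38 in the diaphragm, and Tlr7 and Ifnar2 passed in neither, with 1.01 and 0.39. Irf5, a transcription factor downstream of Toll-like receptors, fell in the tibialis anterior by 0.71 ± 0.11, with means of 4.29 in PDX and 5.01 in sham mice, and Ifi203 by 0.83 ± 0.14. Usp18 fell there by 0.34 ± 0.09, with means of 3.83 in PDX and 4.17 in sham mice. Socs3, an inhibitor of cytokine signalling that many cytokines other than interferon induce, rose in both muscles, by 1.34 ± 0.16 in the diaphragm and 0.82 ± 0.26 in the tibialis anterior.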

How the data were processed

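Total RNA of 29 tibialis anterior and 29 diaphragm samples was biotin-labelled for Affymetrix arrays (labels' protocols). The deposited log2 values are RMA levels that the authors made; the submitters' processing notes name affy 1.36.1 and R 2.15.1. Probe set definitions and genome build: not given in the sources used here. Of 25206 probe sets, 23185 had a gene symbol in the platform annotation and were tested without a filter. The table held 0 columns of other series.

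Groups came from the labels (muscle, cohort, treatment). Tests were run with limma 3.58.1 in R 4.3.3 (two-sided, Benjamini-Hochberg over all named genes, threshold 0.05). Tumour effects used 1 fit per muscle with 8 group means, and both muscles together with 16 group means for comparisons between muscles. Cohorts had equal weight. The scripts were tested on simulated data. Precision is limited by the number of arrays. Every member could be named, with full statistics for the largest differences among those that passed. Alternatives were a filter on dim genes, a trended variance prior, array centring, array weights, leaving out arrays or cohorts, the cohort as the replicate, a replicate block, 1 fit of all arrays and other cohort weights. Leaving out the diaphragm arrays with liver and acinar markers was added after seeing the data. The members and lists were chosen with earlier results of these data known. Listed genes that no probe set names were not analysed here.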

Additional observations from a re-analysis of the deposited data

Results flagged for a closer look

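The tumour effect differed between the muscles, by the test of the difference itself, for 4 members. The diaphragm effect minus the tibialis anterior effect was 0.877 for Oasl2, 0.490 for Oas2, 0.428 for Eif2ak2 and 0.309 for Tor3a on the log2 scale.

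Among 84 combinations of a group of 4 or 5 arrays and 1 of the 14 members looked at array by array, 4 held an array far from the others, and chance gives about 1 in 20. Isg20 was 6.097 on 1 PDX tibialis anterior array of cohort 2, where the next highest was 5.169. Rtp4 was 6.006 on 1 PDX diaphragm of cohort 3, where the next highest was 5.486. The array with this Rtp4 value also had the highest level of liver and acinar markers, at 8.882. Gbp2 was 5.487 on 1 PDX diaphragm of cohort 3, where the next lowest was 5.973, and 4.754 on 1 PDX tibialis anterior array of cohort 2, where the next highest was 4.429.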

How the results depend on the processing

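In the sham muscles, the number of members higher in the diaphragm was 28 to 30 when single arrays were left out, and no setting reversed a call of any comparison. The tumour comparisons rest on few members, and their counts moved. In the tibialis anterior, 1 member rose, against 2 with dim genes filtered out, 2 with centred arrays, 2 without cohort 4, 0 without cohort 1 or 2, 0 with the cohort as the replicate, 0 with a replicate block, 0 in 1 fit of all 58 arrays and 0 with cohorts weighted by their arrays (0 to 2 without single arrays). The 3 that fell there became 6 with dim genes filtered out, 5 without cohort 2 and 1 with the cohort as the replicate (3 to 5 without single arrays). In the diaphragm, 2 rose, against 4 with the filter, 1 without cohort 1, and 0 without cohort 2, with the cohort as the replicate or without the arrays with liver and acinar markers (2 to 4 without single arrays). The 1 that fell there became 2 with array weights and 0 without cohort 1, 2 or 4, with the cohort as the replicate, with cohorts weighted by their arrays or without those arrays (0 to 1 without single arrays). In the difference between the muscles, 4 became 1 with centred arrays, without cohort 1, without cohort 2, with the cohort as the replicate or without the arrays with liver and acinar markers, and 2 without cohort 4 (2 to 4 without single arrays). Within cohorts of the tibialis anterior, array weights gave 2 lower members in cohort 1 and 1 member in the test between cohorts. The 1 lower in cohort 3 became 2 with the filter and 0 with the trended prior, centred arrays or array weights, and the 2 lower in cohort 4 became 1 with the trended prior or centred arrays. Without single arrays these were 1 to 2 higher in cohort 1, 0 to 2 lower in cohort 3 and 0 to 2 lower in cohort 4. In the diaphragm, array weights gave 1 higher in cohort 1, 5 higher in cohort 2, 1 lower in cohort 3 and 2 lower in cohort 4, and 0 were higher in cohort 2 without the arrays with liver and acinar markers. Without single arrays these were 0 to 1, 0 to 3, 0 and 0 to 1, and the median of cohort 4 was -0.316 to -0.0813. The filter kept 13765 genes; the cause of the other changes was not tested. Replicate numbers were checked for pairing: deviations of equal labels in both muscles correlated at -0.222 to 0.222 (median 0.0174), with 13 of 29 best with their own label (7 of 8 in cohort 2), and those of PDX and sham of 1 number at -0.586 to 0.647. As 4 of 29 and 5 of 24 were over 0.1, the numbers were not taken as pairs, although the labels do not settle whether equal numbers are 1 mouse. The cut at 0.1 was a choice. In cohort 2 all 8 correlations of equal labels in both muscles were above 0, so pairing there is not excluded, and the main fits did not use it. With the replicate block, Rsad2 (0.404, limma adjusted p = 0.064) and Rtp4 (-0.251, 0.0576) no longer passed in the tibialis anterior, nor Eif2ak2 between the muscles (0.428, 0.0529) or Rsad2 in the sham muscles (0.459, 0.0775). Isg15, Mx1, Mx2, Oas1a, Oasl1, Dhx58, Ifit2 and, in sham mice, Oas3 were dimmer than the overall median in both muscles, and low signal limits what their differences can show.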
